A study of Mus musculus with 14 samples.

Results

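The glycation repair genes Fn3k, Fn3krp, Glo1, Hagh, Park7 and Glod4 were measured as RNA in liver tumours of the mouse by sequencing. They were chosen by name, as the fructosamine kinases, the glyoxalases and their relatives, with earlier results of these data known. All 6 were found by gene symbol in both tables of counts, among 16821 genes in the first table and 16095 in the second. Every tumour was a hepatocellular carcinoma driven by MYC, and each carried Cas9 with a single guide RNA. In the first table, the guide aimed at Cul3 in 3 tumours (sgCul3), at Keap1 in 3 (sgKeap1) and, as the control, at GFP in 4 (sgGFP). In the second table, the guide aimed at NRF2's ETGE motif in 2 tumours, A and B (sgNrf2), which stood beside controls A and B. Control A is labelled as a repeat of sgGFP tumour 2 and control B as a repeat of sgGFP tumour 4. Mouse strain and age, the promoter that drove MYC and whether tumours came from separate animals were not stated in the sources used here. The p-values below therefore measure only the spread between these tumours, which may in part be technical.

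Sugars and their breakdown products react with the amino groups of proteins without an enzyme, a process called glycation. Fructosamine 3-kinase, the product of Fn3k, phosphorylates the glucose adduct on lysine, which then falls off and frees the lysine. The product of Fn3krp, the fructosamine-3-kinase-related protein, acts on adducts of other sugars such as ribose. Upstream of the protein damage, glyoxalase 1 (Glo1) converts the adduct that the reactive dicarbonyl methylglyoxal forms with glutathione. Glyoxalase 2 (Hagh) splits the product into D-lactate and glutathione. Park7 encodes DJ-1, an oxidative stress protein to which glyoxalase and deglycase activities have been ascribed, the second of them under debate. Glod4 encodes a protein with glyoxalase domains whose reaction is not established. KEAP1 and CUL3 mark the transcription factor NRF2 for degradation, KEAP1 by binding its ETGE motif, so the 3 guides were used to raise NRF2 activity. The title of the series ties the action of NRF2 in tumours to the removal of glycation by FN3K, and the comparisons here ask whether the RNA of the repair genes differed when NRF2 was activated.

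Libraries held 6333025 to 12008223 reads on genes (first table) or 17819333 to 20848578 (second table), so that 3 reads, the limit that a count of 0 allows, equal 0.144 to 0.474 counts-per-million (CPM, relative to all reads on genes). Scaled counts are the reads on a gene divided by the authors' factor for each library. In these, Keap1 had 287 to 462 in sgKeap1 tumours and 582 to 721 in sgGFP tumours. Cul3 had 163 to 676 in sgCul3 tumours and 935 to 1372 in sgGFP tumours. In sgKeap1 tumours Cul3 had 596 to 895, also below every sgGFP tumour and overlapping sgCul3 (limma adjusted p = 0.31 against sgGFP). Nfe2l2, which encodes NRF2, had 1486 and 1615 in sgNrf2 tumours against 1844 and 1397 in the 2 controls. How the guides changed the DNA was not analysed here. The labels call the samples hepatocytes, and all 10 hepatocyte markers examined were detected in every group. Among libraries, sgKeap1 tumour 2 stood apart. Its summed hepatocyte markers came to 90129 CPM, where the other 9 first-table libraries had 12652 to 31399. Of that sum, 79374 CPM were albumin (Alb), and its other 9 markers came to 10755 CPM, within the 7083 to 17305 of the other 9 libraries. Its 10 most abundant genes held 24.5% of its reads. Its Myc level was the lowest of the first table, 77.2 CPM against 260 to 858 in the other 9 libraries. Whether this library held less tumour RNA was not tested. In bulk tumours, fewer cells of a type and less RNA per cell cannot be told apart.

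Fn3k and Fn3krp lie next to each other on mouse chromosome 11 (GRCm38, GENCODE M21 annotation). Fn3krp (ENSMUSG00000039253.7) spans chr11:121421401-121431288 and Fn3k (ENSMUSG00000025175.12) chr11:121434913-121450491, both on the plus strand, with 3624 bases between them. Tbcd, a tubulin folding cofactor, starts 1457 bases beyond Fn3k on the same strand. Glo1 (ENSMUSG00000024026.12) spans chr17:30584936-30626871 on the minus strand and Hagh (ENSMUSG00000024158.17) chr17:24840143-24864450 on the plus strand. Park7 (ENSMUSG00000028964.14) spans chr4:150897133-150914437 and Glod4 (ENSMUSG00000017286.15) chr11:76120987-76243725, both on the minus strand. No source used here states whether reads were counted by strand, so reads of Hagh cannot be told apart from those of Fahd1, which lies inside it on the other strand, where the exons overlap. Glod4 in the same way overlaps Vps53 on its own strand and Fam57a, Dbil5 and Mrm3 on the other.

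The 250 bases before the RefSeq start of Fn3krp and of Park7 are shown because these genes had the lowest p-values in sgNrf2 tumours, described below. They are the RefSeq sequence of GRCm38.p6, at chr11:121421123-121421372 on the plus strand and chr4:150909922-150910171 on the minus strand, and capitals mark CCAAT and GGGCGG on either strand.
Fn3krp: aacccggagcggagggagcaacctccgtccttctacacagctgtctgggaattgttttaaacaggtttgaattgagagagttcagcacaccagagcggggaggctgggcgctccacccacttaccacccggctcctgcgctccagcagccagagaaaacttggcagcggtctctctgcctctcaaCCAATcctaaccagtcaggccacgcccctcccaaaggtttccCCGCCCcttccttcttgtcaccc
Park7: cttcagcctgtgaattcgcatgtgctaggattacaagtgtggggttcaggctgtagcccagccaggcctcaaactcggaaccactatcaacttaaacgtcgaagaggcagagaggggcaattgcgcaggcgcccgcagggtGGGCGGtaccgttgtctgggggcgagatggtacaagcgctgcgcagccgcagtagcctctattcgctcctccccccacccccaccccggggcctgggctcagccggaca
Fn3krp held 1 CCAAT box and 1 GC box (GGGCGG, here read as its complement), and Park7 held 1 GC box and no CCAAT box. Over all 32851 promoter windows, 33.8% held CCAAT and 32.7% held GGGCGG within their 250 bases before the start. These 2 motifs were added after the sequence was seen. The core of the antioxidant response element, the sequence NRF2 binds, was searched as TGACNNNGC on both strands over 250 bases before to 50 after each start. No window of Fn3k was available, so Fn3k was not searched for any of these motifs. The core was found in 12.4% of all windows and in 1 of the 6 windows of Fn3krp, Glo1, Glod4, Hagh (2 windows) and Park7. That match, TGACGCGGC, lay 20 bases after the second of the RefSeq starts of Hagh. The E-box CACGTG, a site bound by MYC, was in 7.15% of all windows and in 0 of these 6.

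The 6 genes covered a wide range of RNA levels. In CPM per kilobase of the principal transcript, the median level over the 10 tumours of the first table was 424 for Park7 and 91.1 for Hagh. It was 48.5 for Glod4, 3.47 for Fn3krp and 2.37 for Fn3k. Fn3krp and Fn3k were neighbours in this order with overlapping ranges, 1.71 to 6.19 for Fn3krp and 0 to 14.2 for Fn3k. The ranges of Glod4 (31.1 to 66.8) and Hagh (68.1 to 131) did not overlap, while that of Park7 (204 to 580) lay above both. Glo1 could not be placed, because its 3 principal transcripts run from 895 to 9865 bases. Its median level came to 117 per kilobase of the shortest and 10.6 per kilobase of the longest. Levels of other genes also depended on the length used. Per kilobase of all annotated exons merged, the medians were 160 for Park7, 56.9 for Hagh, 11.6 for Glod4, 3.47 for Fn3krp and 0.565 for Fn3k. On that length the ranges of Hagh (42.5 to 81.7) and Park7 (77.3 to 219) overlapped. Among all 13045 genes tested in the first table, Fn3k had a higher mean than 17.1% and Park7 a higher one than 97.4%.

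In the first table Fn3k was the most variable of the 6 genes. Its reads numbered 0, 29 and 5 in sgCul3 tumours 1 to 3, then 31, 97 and 20 in the sgKeap1 tumours, and 24, 12, 42 and 27 in sgGFP tumours 1 to 4. Scaled for depth by the authors, these were 0, 25.7 and 3.91 counts in sgCul3, 25.3, 196.6 and 28.9 in sgKeap1, and 16.2, 9.21, 37.2 and 24.2 in sgGFP. The high value belonged to sgKeap1 tumour 2, the low ones to sgCul3 tumours 1 and 3, and the groups overlapped. Counting error alone put 12.1 to 18.2 CPM around the value of 14.9 in sgKeap1 tumour 2 (exact 95% Poisson interval), above the intervals of the other 9 libraries. The count of 0 in sgCul3 tumour 1 allowed up to 0.474 CPM at the limit of 3 reads, and its exact interval reached 0.582 CPM. Over the 10 tumours, the SD of log2 values was 1.76 for Fn3k, higher than for 97.1% of all genes tested. In the second table its log2 SD was 0.39, below the 0.75 of Fn3krp and the 0.51 of Park7. Fn3k rested on 287 reads in the 10 libraries of the first table together.

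The mean scaled count of Fn3k was 9.87 ± 13.8 in sgCul3 (SD, n = 3) against 21.7 ± 12.0 in sgGFP (n = 4), which on the log2 scale differed by -1.63 ± 0.92 (SE). It did not pass the threshold, an adjusted p under 0.05 over all genes tested (limma adjusted p = 0.39), with a 95% interval of -3.65 to 0.38. With 1 library left out in turn the difference ran from -2.64 without sgCul3 tumour 2 to -0.74 without sgCul3 tumour 1, and it was -1.07 in edgeR. None of these passed. In sgKeap1 the mean was 83.6 ± 97.9 (n = 3), and the log2 difference from the same sgGFP tumours was 1.37 ± 0.92 (limma adjusted p = 0.34). Without sgKeap1 tumour 2 it was 0.44. Set directly against each other, sgKeap1 and sgCul3 differed in Fn3k by 3.0 ± 0.98 on the log2 scale, with an interval of 0.84 to 5.16. The unadjusted p was 0.011 and the limma adjusted p 0.42, so the difference did not pass over all genes. It was 2.08 without sgKeap1 tumour 2 and 2.11 without sgCul3 tumour 1, and in scaled counts sgCul3 tumour 2 lay above sgKeap1 tumour 1. DESeq2 gave it an adjusted p of 0.16, and the adjusted p ran from 0.16 to 0.90 over the alternatives.

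**Figure D1:**
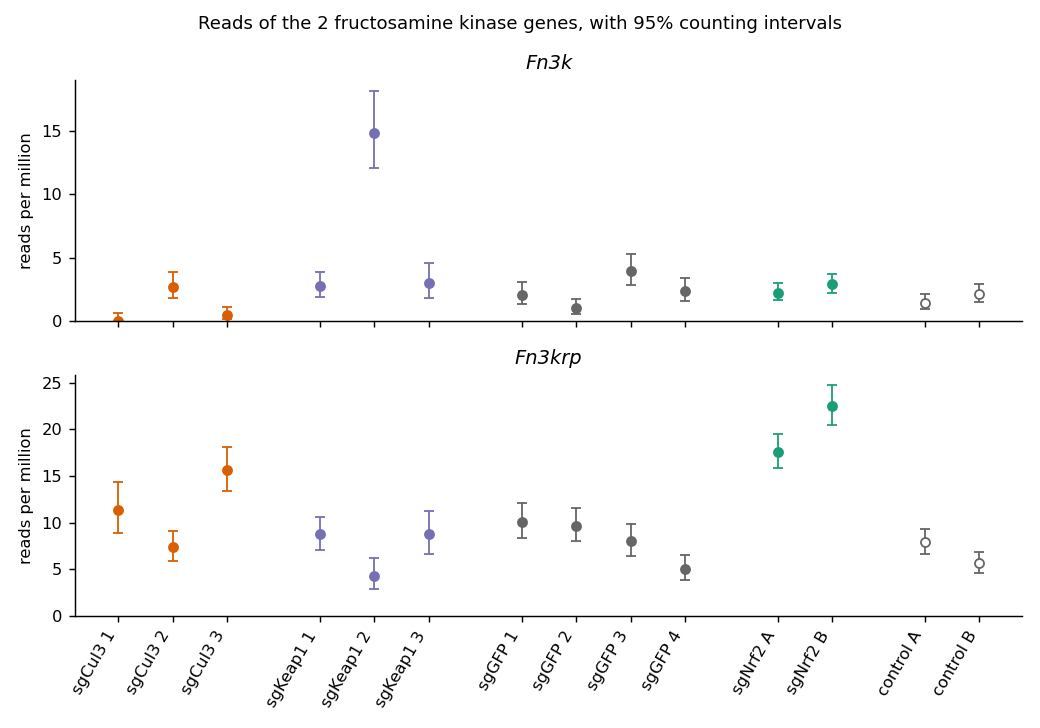
CPM of Fn3k (upper panel) and Fn3krp (lower panel) in each of the 14 libraries, with exact 95% Poisson intervals for counting error; open circles are controls A and B, repeats of sgGFP tumours 2 and 4. Fn3k reached 14.9 in sgKeap1 tumour 2 and stayed at or below 3.91 in the other libraries, while Fn3krp was highest in the sgNrf2 tumours at 17.6 and 22.5.

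Fn3krp varied less, with a log2 SD of 0.37 that exceeded that of 32.6% of genes. It had 99.5, 70.9 and 133.7 scaled counts in sgCul3 tumours, 80.9, 56.8 and 85.1 in sgKeap1 tumours, and 79.6, 89.0, 76.2 and 52.8 in sgGFP tumours. The 3 groups overlapped. The log2 fold change was 0.41 ± 0.31 in sgCul3 (limma adjusted p = 0.53) and 0.00 ± 0.31 in sgKeap1 (limma adjusted p = 0.999), and the intervals were -0.26 to 1.09 and -0.67 to 0.67. Within a tumour, Fn3k and Fn3krp can be set against each other without any scaling between libraries. Fn3k made up 77.6% of the reads on both genes in sgKeap1 tumour 2 (exact 95% binomial interval 69.3% to 84.6%), and 23.8% and 25.3% in sgKeap1 tumours 1 and 3. The 3 sgCul3 tumours had 0%, 26.6% and 2.84%, against 16.9%, 9.38%, 32.8% and 31.4% in the 4 sgGFP tumours. Fn3krp held most reads of the pair in 9 of 10 tumours, and sgKeap1 tumour 2 was the exception. These shares are of reads and are not corrected for transcript length. In CPM per kilobase of the principal transcript, Fn3k lay above Fn3krp in sgGFP tumours 3 and 4 as well as in sgKeap1 tumour 2. Per kilobase of all annotated exons merged, Fn3k lay above Fn3krp in sgKeap1 tumour 2 alone.

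The level of Fn3k was then set beside the hepatocyte markers of the same library, a ratio chosen after the values were seen. Per 10000 reads on the 10 markers, Fn3k had 0, 0.873 and 0.361 reads in sgCul3 tumours, 1.70, 1.65 and 1.92 in sgKeap1 tumours, and 1.57, 0.501, 1.33 and 0.735 in sgGFP tumours 1 to 4. The 3 sgKeap1 tumours lay above all sgGFP tumours and all sgCul3 tumours. The gap to sgGFP was small, 1.65 in sgKeap1 tumour 2 (97 reads) against 1.57 in sgGFP tumour 1 (24 reads). SgKeap1 tumour 3 rested on 20 reads, and no counting interval was computed for this ratio. Of all genes tested, 1.69% stood as high in sgKeap1 against sgGFP without overlap on the same scale, and 0.245% did in sgKeap1 against sgCul3. The other 5 genes overlapped between sgKeap1 and sgGFP on this scale, where 4.58% of all genes stood apart in either direction.

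The ratio depended on Alb. Its reads made up 88.1% of the marker reads of sgKeap1 tumour 2, whereas every other first-table library lay between 26.7% and 55.1%. Per 10000 reads on the 9 markers without Alb, Fn3k had 0, 1.94 and 0.539 reads in sgCul3 tumours, 3.37, 13.9 and 4.18 in sgKeap1 tumours, and 2.15, 0.883, 2.29 and 1.33 in sgGFP tumours. The sgKeap1 tumours were again above the others, but tumour 2 stood apart, as it did in CPM. Without Alb, 15.3% of all genes stood as high in sgKeap1 against sgGFP, Hagh among them, and 5.49% did in sgKeap1 against sgCul3, again with Hagh.

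In the second table Fn3k had 1.22 and 1.23 reads per 10000 reads on the 10 markers in sgNrf2 tumours, against 0.661 and 0.684 in the controls. Without Alb it had 2.43 and 2.48 in sgNrf2 tumours, against 1.19 and 1.55 in the controls. There, 51% of all genes stood as high on the first scale and 56.3% on the second. The 10 markers summed to 18104.5 and 23311 CPM in sgNrf2 tumours, against 21163 and 31180.5 in the controls, and overlapped. Without Alb the sums were 9070 and 11532 CPM in sgNrf2 tumours, both below the 11772 and 13749 of the controls. Of the 10 markers, limma and edgeR each called 1 lower in sgNrf2, DESeq2 called 3 lower, and 0 were called higher. The part of hepatocyte content in these values was not tested.

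**Figure D2:**
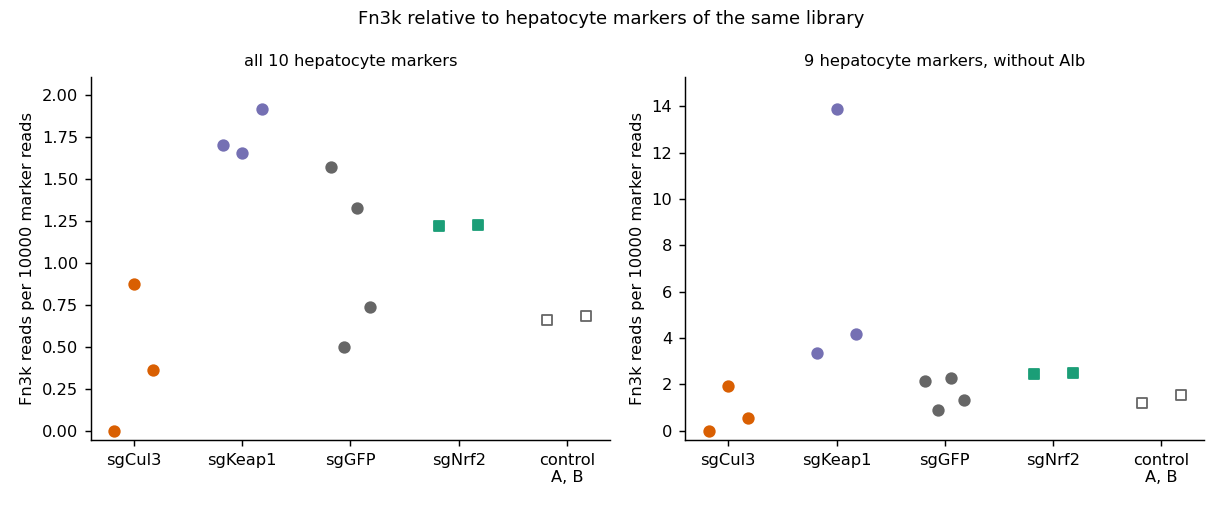
Fn3k reads per 10000 hepatocyte marker reads of the same library by group, 1 point per library, over all 10 markers (left) and without Alb (right). The 3 sgKeap1 tumours lie above the 4 sgGFP tumours in both, at 1.65 to 1.92 against 0.501 to 1.57 on the left, and sgKeap1 tumour 2 stands apart at 13.9 on the right.

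Neither glyoxalase passed the test in sgCul3 or sgKeap1. Glo1 had 1072, 1252 and 793 scaled counts in sgCul3 tumours, 1076, 1149 and 981 in sgKeap1 tumours and 658, 1053, 979 and 1106 in sgGFP tumours. Its log2 fold change was 0.13 ± 0.23 in sgCul3 and 0.20 ± 0.23 in sgKeap1, with intervals of -0.36 to 0.63 and -0.30 to 0.69. Hagh had 779, 1263 and 695 scaled counts in sgCul3 tumours, 936, 2055 and 900.4 in sgKeap1 tumours and 713, 1068, 1164 and 1311 in sgGFP tumours. The high value was again that of sgKeap1 tumour 2. Hagh had a log2 fold change of -0.24 ± 0.33 in sgCul3 and 0.21 ± 0.33 in sgKeap1, and without sgKeap1 tumour 2 the second was -0.18. All 4 of these adjusted p-values lay between 0.59 and 0.81.

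Glod4 was the steadiest of the genes, with a log2 SD over the 10 tumours of 0.16, higher than for 1.08% of genes tested. It averaged 716 ± 115 scaled counts in sgCul3, 630 ± 46.5 in sgKeap1 and 642 ± 47.3 in sgGFP (SD, n = 3, 3 and 4). Its log2 fold changes were 0.15 ± 0.17 and -0.03 ± 0.17, with intervals that reached no further than -0.40 and 0.52. Park7, the most abundant, had 3411, 4608 and 2386 scaled counts in sgCul3 tumours, 5024, 2526 and 3942 in sgKeap1 tumours and 2915, 3860, 2966 and 4314 in sgGFP tumours. The lowest and highest Park7 values of the sgKeap1 group spanned the whole sgGFP group. The log2 fold changes of Park7 were -0.05 ± 0.30 in sgCul3 and 0.09 ± 0.30 in sgKeap1, and the second turned to -0.06 under quantile normalization and -0.11 with equal totals.

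**Figure D3:**
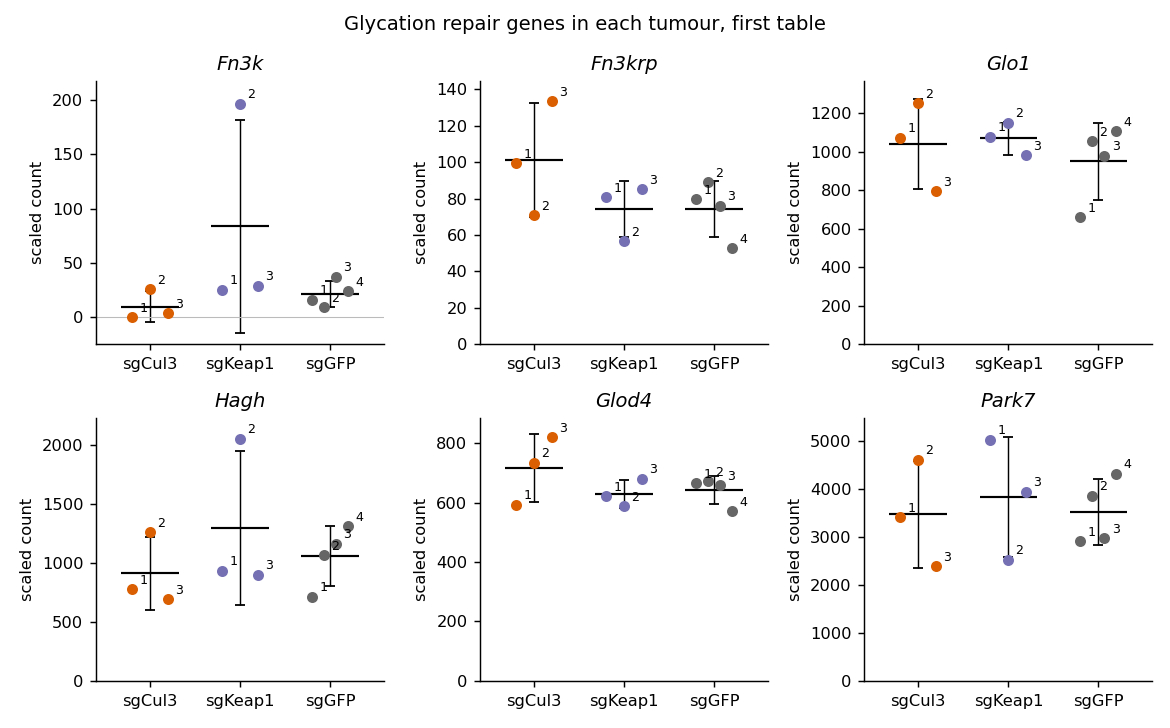
Scaled counts of the 6 genes in the 10 tumours of the first table, 1 panel per gene with its own axis; points are tumours with their number, horizontal lines the group mean and whiskers 1 SD (n = 3 sgCul3, 3 sgKeap1, 4 sgGFP). Groups overlap in every panel, and the point at 196.6 in the Fn3k panel is sgKeap1 tumour 2.

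In counts, limma called 0 of the 6 genes in sgCul3 against sgGFP, where 2.2% of all genes tested were called. It called 0 of 6 in sgKeap1 against sgGFP, where 7.82% were called, and 0 of 6 in the mean of both guides against sgGFP (7.56%). Between sgKeap1 and sgCul3 it called 0 of 6, against 0.0613% of all genes. At an unadjusted p under 0.05 the counts were 0, 0, 0 and 1 in this order, the 1 being Fn3k. The matching shares of all genes were 17.2%, 29.2%, 27% and 10.1%. In the same order, edgeR called 0 of 6 in each, beside 1.89%, 7.35%, 7.8% and 0.046% of all genes. DESeq2 likewise called 0 of 6 in each, beside 7.1%, 16.4%, 15.7% and 0.797%. No gene of the 6 had groups without overlap, which 16.2%, 25.8%, 9.23% and 15.8% of genes had. The median log2 fold change of the 6 was 0.04, 0.14, 0.04 and 0.10, beside 0.01, -0.01, -0.00 and -0.00 over all genes. The comparisons with sgGFP share the same 4 control tumours.

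**Figure D4:**
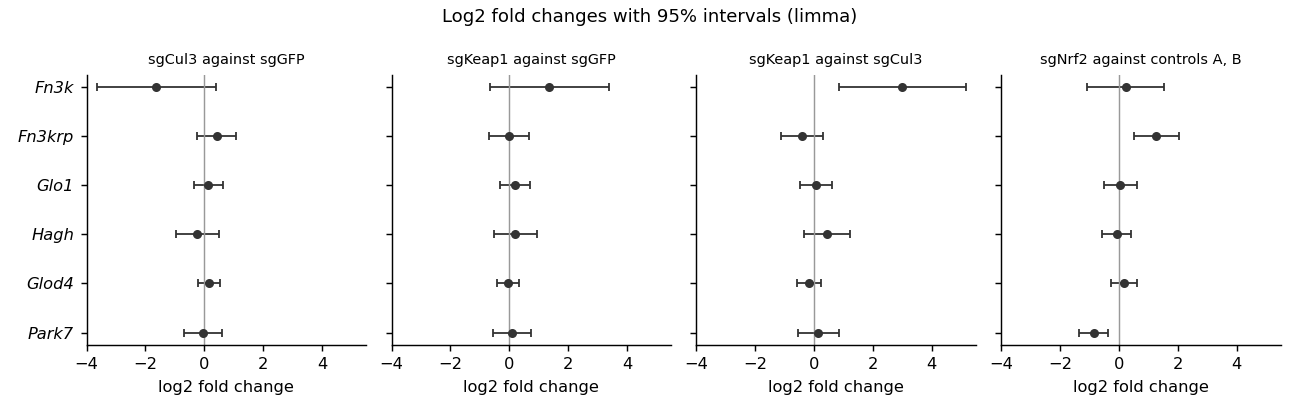
Log2 fold changes of the 6 genes (points) with 95% intervals from limma (bars), 1 panel per comparison, on a common axis. Fn3k has the widest interval in each panel. Before adjustment for the number of genes, 3 intervals do not reach 0: Fn3k in sgKeap1 against sgCul3 (0.84 to 5.16), and Fn3krp (0.50 to 2.03) and Park7 (-1.36 to -0.37) in sgNrf2.

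In the second table Fn3krp and Park7 stood apart from their controls, in opposite directions, without passing the adjusted threshold. Fn3krp had 297 and 378 scaled counts in sgNrf2 tumours A and B, against 152 and 127 in controls A and B. Both sgNrf2 tumours lay above both controls, also in CPM, with counting intervals of 15.8 to 19.5 and 20.5 to 24.8 against 6.65 to 9.31 and 4.57 to 6.83. On the log2 scale the difference was 1.27 ± 0.30 (SE, n = 2 each), with an interval of 0.50 to 2.03. Its unadjusted p was 0.0081 and its limma adjusted p 0.075. The adjusted p of Fn3krp was 0.014 with DESeq2, 0.086 with edgeR, 0.046 without control A, and 0.014 to 0.48 over all alternatives.

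Park7 had 4154 and 3889 scaled counts in sgNrf2 tumours, against 7951 and 6712 in controls A and B. The sgNrf2 values were close together and both lay below the controls. The means were 4022 ± 188 and 7331 ± 876 (SD, n = 2 each), a log2 fold change of -0.86 ± 0.19 with an interval of -1.36 to -0.37. Its unadjusted p was 0.0067 and its limma adjusted p 0.070, with 0.0044 by DESeq2, 0.079 by edgeR, 0.040 without control A and up to 0.47 over the alternatives. Scaling every library to the same total raised the median log2 fold change of all genes to 0.34 in place of 0.04. With equal totals, Fn3krp had 1.57 (limma adjusted p = 0.054) and Park7 -0.55 (limma adjusted p = 0.15). Relative to the median of all genes, Fn3krp stood at 1.23 under both scalings and Park7 at -0.90. Such a scaling shifts nearly all genes of a library alike, so these distances could hardly differ between scalings.

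The other 4 genes had adjusted p-values of 0.53 or more in limma. Glo1 had 2276 and 2596 scaled counts in sgNrf2 tumours against 2054 and 2715 in the controls, and Hagh had 2073 and 2481 against 2509 and 2307. Glod4 had 1720 and 1751 in sgNrf2 tumours against 1490 and 1597 in the controls, without overlap, and its log2 difference of 0.17 ± 0.17 did not pass (limma adjusted p = 0.53). Fn3k had 37.3 and 48.1 scaled counts in sgNrf2 tumours (46 and 55 reads), against 27.0 and 48.1 in the controls (25 and 38 reads). Its log2 fold change was 0.23 ± 0.51, with an interval of -1.08 to 1.54 that leaves room for changes of more than 2-fold in either direction. Fn3k made up 11.1% and 11.3% of the reads of the kinase pair in sgNrf2 tumours and 15.1% and 27.5% in controls A and B.

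**Figure D5:**
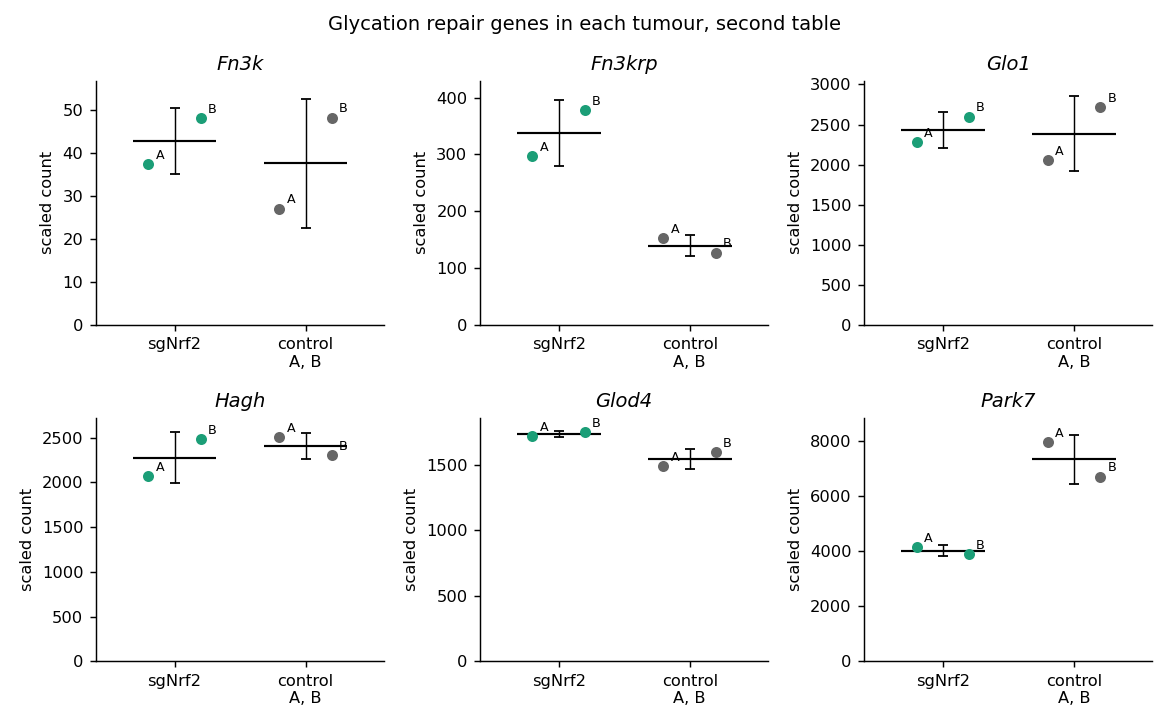
Scaled counts of the 6 genes in the 4 tumours of the second table, 1 panel per gene with its own axis; points are tumours with their letter, horizontal lines the mean and whiskers 1 SD (n = 2 sgNrf2, 2 controls). Fn3krp lies higher and Park7 lower in both sgNrf2 tumours than in both controls, Glod4 is slightly higher, and the other 3 genes overlap.

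Limma called 0 of the 6 genes in sgNrf2, where it called 4.41% of all genes, and edgeR also called 0, beside 3.32%. DESeq2 called 2 of 6, Fn3krp and Park7, beside 18.9%. The 6 had a median log2 fold change of 0.11, against 0.04 for all genes tested. At an unadjusted p under 0.05 there were 2 of 6, beside 30.3% of all genes. Groups did not overlap for 3 of 6, which with 2 tumours against 2 was so for 64% of all genes.

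Markers of other cells moved with these comparisons. Erythroid markers summed to 56.3 and 117 CPM in sgNrf2 tumours, against 898 and 854 in controls A and B, and limma called 7 of 7 lower. Neutrophil markers summed to 6.72 to 26.3 in sgNrf2 tumours against 194 to 490 in the controls, and 2 of 6 were called lower. The lists of other cells were mixed. Macrophage markers summed to 173 to 192 in sgNrf2 tumours against 38.6 to 143 in the controls, yet limma called 0 of 6 higher and 2 lower, Marco (-5.58 ± 0.68 on the log2 scale, adjusted p = 0.036) and Clec4f (-5.52 ± 0.72, adjusted p = 0.039), both markers of the resident macrophages of the liver. Endothelial markers summed to 131 to 149 in sgNrf2 tumours against 50.9 to 64.7 in the controls. Of these, Pecam1 rose by 1.40 ± 0.21 (limma adjusted p = 0.044), 1 of 5, while Lyve1, a marker of liver sinusoids, had -3.35 ± 0.62 (limma adjusted p = 0.054) and was called lower by DESeq2. Fibroblast markers summed to 162 to 212 in sgNrf2 tumours against 85.6 to 98.8 in the controls (1 of 5 called higher), and cholangiocyte markers to 31.5 to 258 against 7.13 to 30.7 (0 of 5 by limma, 1 at an unadjusted p under 0.05, 0 by edgeR, 2 by DESeq2). None of the markers detected in the table was at 0 throughout a group. The part of these cells in the values of Fn3krp and Park7 was not tested.

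In the first table erythroid markers came to 47.9 to 1171 CPM in sgCul3, 159 to 234 in sgKeap1 and 628 to 1436 in sgGFP, with 2 and 3 of 7 called lower by limma in sgCul3 and sgKeap1. Neutrophil markers came to 13.6 to 262 in sgCul3, 9.38 to 19.4 in sgKeap1 and 64.0 to 484 in sgGFP. Of 6, limma called 4 lower in sgKeap1 and 0 in sgCul3, where 4 had an unadjusted p under 0.05, edgeR called 0 and DESeq2 2. Cholangiocyte markers came to 27.7 to 144 in sgCul3, 53.7 to 182 in sgKeap1 and 8.21 to 36.0 in sgGFP, with 1 and 2 of 5 called higher. Fibroblast markers came to 62.8 to 257 in sgCul3, 207 to 365 in sgKeap1 and 91.7 to 256 in sgGFP. Endothelial markers came to 38.3 to 56.2 in sgCul3, 53.3 to 85.9 in sgKeap1 and 61.2 to 122 in sgGFP. Limma called 1 of 5 lower in sgCul3, Lyve1 (-3.44 ± 0.67 on the log2 scale, adjusted p = 0.028), where edgeR called 0 and DESeq2 2. It called 0 of 5 in sgKeap1 and 2 lower in the mean of both guides. The part of these cells in the values of the 6 genes was not tested.

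The tumours labelled as repeats show how far values moved between tables. In CPM, control A over sgGFP tumour 2 gave ratios of 1.40 for Fn3k, 0.817 for Fn3krp and 0.986 for Park7. Control B over sgGFP tumour 4 gave 0.923 for Fn3k, 1.11 for Fn3krp and 0.722 for Park7. Across all 6 genes the ratios ran from 0.722 to 1.40. Fn3krp in sgNrf2 tumours, at 17.6 and 22.5 CPM, was also above its highest value in any tumour of the first table, 15.6 in sgCul3 tumour 3. Park7, at 246 and 231 CPM in sgNrf2 tumours, was within the range of the first table, where sgKeap1 tumour 2 had 192. These levels were set side by side across tables that the authors scaled separately and were not tested.

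The wider handling of reactive carbonyls was described by lists of related genes. Of 10 dicarbonyl and carbonyl reductases, 2 rose in sgCul3, in sgKeap1 and in sgNrf2, and 8 did not pass in each. Of all genes tested, limma called 1.35%, 4.45% and 1.9% higher in these comparisons. In all 3 the 2 were Cbr3 and Cbr1, carbonyl reductases that use NADPH. On the log2 scale Cbr3 rose by 6.72 ± 0.35, 6.96 ± 0.35 and 6.77 ± 0.47 (limma adjusted p = 7.9e-06, 2.2e-06 and 0.023), and Cbr1 by 3.03 ± 0.47, 3.64 ± 0.47 and 2.01 ± 0.33 (adjusted p = 0.0099, 0.0016 and 0.047). In sgNrf2 edgeR gave Cbr1 an adjusted p of 0.054. Akr1b10, an aldo-keto reductase, had -2.23 ± 0.54 in sgCul3 and -1.56 ± 0.54 in sgKeap1 (limma adjusted p = 0.059 and 0.090), and it fell in the mean of both guides against sgGFP, by 1.90 (limma adjusted p = 0.031). DESeq2 called 2 of the 10 lower in sgCul3, 2 in sgKeap1 and 1 in sgNrf2. Of 5 aldehyde dehydrogenases, Aldh1a1, which also oxidises retinal, rose in sgKeap1 by 2.04 ± 0.37 and in sgNrf2 by 2.87 ± 0.29 (limma adjusted p = 0.010 and 0.031). In sgCul3 its 1.58 ± 0.37 did not pass (adjusted p = 0.056), so 0 of 5 were called, beside 2 at an unadjusted p under 0.05, 0 by edgeR and 1 by DESeq2.

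Among 11 relatives of the glyoxalases by fold or by pathway, Glod5, whose protein carries a glyoxalase domain like that of Glod4, rose in sgCul3 by 3.23 ± 0.59 and in sgKeap1 by 2.61 ± 0.59 (limma adjusted p = 0.021 and 0.024). In sgNrf2 it had 2.78 ± 0.66 (adjusted p = 0.076). Ldhd, the mitochondrial D-lactate dehydrogenase that takes up the end product of the glyoxalases, rose in sgKeap1 by 1.45 ± 0.36 (adjusted p = 0.037). In sgNrf2, Ethe1, a mitochondrial persulfide dioxygenase, rose by 1.2 ± 0.19 and Hpd, a dioxygenase of tyrosine breakdown, fell by 2.48 (adjusted p = 0.044 and 0.036). The other relatives did not pass, 10 of 11 in sgCul3 and 9 of 11 in sgKeap1 and in sgNrf2. At an unadjusted p under 0.05 in limma there were 1, 5 and 8 of 11, beside 17.2%, 29.2% and 30.3% of all genes. DESeq2 called 1 higher in sgCul3, 3 higher in sgKeap1, and 4 higher and 2 lower in sgNrf2. Its shares of all genes were 7.1%, 16.4% and 18.9%. In sgCul3, sgKeap1 and sgNrf2 the median log2 fold change was 0.08, -0.03 and 0.30 for the reductases, 0.07, 0.16 and -0.15 for the dehydrogenases, and 0.22, 0.44 and 0.44 for the relatives, beside 0.01, -0.01 and 0.04 for all genes.

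Upstream of methylglyoxal, 0 of 8 genes of triose phosphate metabolism passed in sgCul3 and in sgKeap1, with median log2 fold changes of -0.43 and -0.74. At an unadjusted p under 0.05 these were 2 and 4, where the shares of all genes were the 17.2% and 29.2% given above, with 0 and 0 by edgeR, and 1 and 2 by DESeq2. In sgNrf2, 1 of 8 fell, the glycolytic enzyme Gapdh, by 2.04 on the log2 scale (limma adjusted p = 0.042), and the median was -0.16. Of the polyol and fructose pathway, Tkfc, the triokinase that phosphorylates glyceraldehyde, rose in sgKeap1 by 0.90 ± 0.19 (adjusted p = 0.021), 1 of 6 measured genes. In sgCul3 0 of 6 passed (2 unadjusted, 0 by edgeR, 1 by DESeq2) and in sgNrf2 0 of 7 (4 unadjusted, 0 by edgeR, 4 by DESeq2). Of 9 measured receptors and binders of glycated protein, Scarb1, a lipoprotein receptor, fell by 1.16 in sgKeap1 (adjusted p = 0.016), while 0 passed in sgCul3 (3 unadjusted, 0 by edgeR, 1 by DESeq2) and 0 in sgNrf2 (2 unadjusted, 0 by edgeR, 1 by DESeq2). Among 7 enzymes that repair other protein damage, Msrb2, a methionine sulfoxide reductase, rose in sgKeap1 by 3.19 ± 0.74 (limma adjusted p = 0.028), with an adjusted p of 0.054 in edgeR and 0.0026 in DESeq2. In sgCul3 0 of 7 passed (1 unadjusted, 0 by edgeR, 1 by DESeq2) and in sgNrf2 0 of 7 (2 unadjusted, 0 by either other tool). Of 8 metabolite repair enzymes, limma, edgeR and DESeq2 called 0 in sgCul3, sgKeap1 and sgNrf2, where 3, 4 and 2 had an unadjusted p under 0.05 in limma.

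For comparison, 9, 10 and 9 of 12 reference targets of NRF2 rose in sgCul3, sgKeap1 and sgNrf2, with median log2 fold changes of 2.07, 2.59 and 2.91. Srxn1, which restores oxidised peroxiredoxins, had 5.78 ± 0.35, 6.97 ± 0.35 and 6.54 ± 0.25 (limma adjusted p = 1.6e-05, 2.2e-06 and 0.012). Of 5 genes of glutathione supply, 4, 5 and 4 rose by limma, 4, 5 and 3 by edgeR and 5 in each by DESeq2, among them Slc7a11, the cystine importer, and Gclc, the catalytic subunit of glutamate-cysteine ligase. Glutathione is the cofactor of Glo1. The median log2 fold change of this list was 1.93, 2.59 and 1.83, beside 0.13, 0.20 and 0.04 for Glo1. Some genes are on more than 1 of these lists, so their counts are not independent, and no list was tested as a set.

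The genes whose pattern over the 10 tumours of the first table was most like that of each repair gene were ranked by the root mean square difference of centred log2 values, among about 8875 genes with a mean of at least 100. For Fn3k they were Apoa5, a liver apolipoprotein, at 0.72, Lhpp, a phosphohistidine phosphatase, at 0.73, and Col14a1, a collagen, at 0.76. These distances were large beside the others, and the root mean square of Fn3k itself was 1.66. Apoa5 had 8897 scaled counts in sgKeap1 tumour 2 and 158 to 3069 in the other 9. Apoa5 fell by 3.89 in sgNrf2 (limma adjusted p = 0.034), beside the 0.23 of Fn3k. Fn3krp was closest to Ppp2cb, a catalytic subunit of protein phosphatase 2A, at 0.11. Park7 was closest to Tmem258, a subunit of the oligosaccharyltransferase, at 0.17, and Tmem258 had -1.08 ± 0.19 in sgNrf2 (adjusted p = 0.051) beside the -0.86 of Park7. Glo1 was closest to Mvb12a (0.11), Hagh to Haao (0.17) and Glod4 to Ssu72 (0.083). Tbcd, the gene beyond Fn3k, differed by -0.08 ± 0.18 in sgCul3, -0.18 ± 0.18 in sgKeap1 and 0.04 ± 0.22 in sgNrf2 on the log2 scale, and did not pass in any of them.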

How the data were processed

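Total RNA of the tumours was extracted with a Qiagen kit and prepared with an Illumina TruSeq kit, per the labels. The deposited values are a signal: gene counts from HTSeq that the authors scaled with DESeq, per the submitters' processing notes, which also name Picard and mm10. The sources used here state no aligner, tool version or strand setting. The first table holds each value with 1 added. With that removed (scaled counts in the text), all values were whole multiples of 1 read per library, to within 0.1 reads, and reads were recovered from them. In the second table, 52.4% to 66.8% of reads stood in 4 rows of no gene, which were left out.

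A mean deposited value of 10 or more left 13045 and 13989 genes. These were tested in R 4.3.3 by limma 3.58.1, two-sided, on log2(deposited value + 1) with a mean-variance trend. A gene was called where p, adjusted by Benjamini-Hochberg over all genes tested, was under 0.05. Fold changes of low genes can be understated on this scale, but not always. Fn3k had 1.37 in sgKeap1, against 1.93 in edgeR and 1.95 in DESeq2. In sgCul3 it had -1.63, against -1.07 in edgeR and -1.11 in DESeq2. All 3 first-table groups were fitted together, with a common spread, and the tables were tested separately. Alternatives included edgeR 4.0.16 and DESeq2 1.42.0 on the recovered reads, other scalings, filters and pseudocounts, the tumour number as a block, and leaving out each library. Leaving Alb out of the hepatocyte markers was added after seeing the data. The limma fit was also run on simulated counts for sgCul3 and sgNrf2, with changes placed only in genes with a mean of at least 100. That run does not bear on genes as low as Fn3k, or as Fn3krp in the first table. Same-numbered sgCul3 and sgGFP tumours deviated together (r = 0.164, 0.175 and 0.314), which was taken as pairing by the data, not by the design. For same-numbered sgKeap1 and sgCul3 tumours r was 0.239, 0.518 and 0.098, and for their other pairs it ran from -0.436 to 0.264. The main fit used no pairing. Intervals and limits from reads cover counting error only: without molecular identifiers, reads need not be independent molecules.

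The 6 genes and all lists were chosen with earlier results of these data known. Beside the 6, the text names the targeted genes, Myc, and overlapping and neighbouring genes. It also names the 3 genes most like each by pattern, and up to 3 genes per list with the smallest adjusted p. Not every gene so named is described, and those described were picked after their values were seen.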

Additional observations from a re-analysis of the deposited data

Results flagged for a closer look

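In a group of 4 sgGFP tumours, the Glod4 value of tumour 4 stood apart from the others. It had 572 scaled counts, against 659 to 673 in tumours 1 to 3, and the gap to the nearest tumour was 0.863 of the range of the group, above the critical value of 0.829. Such a gap arises by chance in about 1 of 20 groups, and 6 genes were examined in this group. Without sgGFP tumour 4, no member's call changed in the comparisons with sgGFP.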

How the results depend on the processing

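No call among the 6 genes changed in the 4 comparisons of the first table under any alternative run. In sgNrf2, 2 of 6, Fn3krp and Park7, passed with DESeq2 (log2 fold changes 1.26 and -0.89) and without control A, where control B is assumed to vary like the sgNrf2 tumours. With a library left out, Fn3krp ran from 1.09 to 1.44 and Park7 from -0.98 to -0.74, and calls among the 6 from 0 to 2. The tumour number as a block changed no call of the 6. With it sgGFP tumour 4, which has no partner, was dropped; Park7 in sgCul3 moved to 0.056, Fn3krp in sgKeap1 to -0.15 and Hagh in the mean of both guides to 0.10. Same-numbered sgKeap1 and sgGFP tumours did not deviate together (r = 0.20, 0.043 and -0.094), nor did those lettered A and B.

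Of 541 values of the 6 genes under an alternative, 482 kept their direction and side of the threshold. The 20 that changed sign with every library kept, and the 35 with a library left out, were all of genes that did not pass. Quantile normalization gave -0.10 for Fn3krp and -0.058 for Park7 in sgKeap1, -0.0577 for Park7 in the mean of both guides and -0.00047 for Park7 in sgKeap1 against sgCul3. Equal totals gave -0.19 for Fn3krp, -0.0033 for Glo1 and -0.11 for Park7 in sgKeap1, -0.022 for Glod4 and -0.061 for Park7 in the mean of both guides, -0.18 for Glo1 and -0.10 for Park7 in sgKeap1 against sgCul3, and 0.22 for Hagh in sgNrf2. In the mean of both guides, Fn3k was 0.086 with a pseudocount of 5, 0.43 with edgeR and 0.42 with DESeq2, and Hagh 0.033 with edgeR and 0.034 with DESeq2. The cause of these changes was not tested.

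With each library left out in turn, values ran in sgCul3 from -0.033 to 0.32 for Glo1 and -0.28 to 0.19 for Park7. In sgKeap1 they ran from -0.15 to 0.18 for Fn3krp, -0.085 to 0.019 for Glod4, -0.18 to 0.42 for Hagh and -0.13 to 0.36 for Park7. In the mean of both guides they ran from -0.64 to 0.31 for Fn3k, -0.0012 to 0.26 for Glo1, -0.21 to 0.10 for Hagh and -0.10 to 0.16 for Park7. In sgKeap1 against sgCul3 they ran from -0.12 to 0.21 for Glo1 and -0.11 to 0.41 for Park7, and in sgNrf2 from -0.18 to 0.63 for Fn3k, -0.16 to 0.24 for Glo1 and -0.21 to 0.044 for Hagh. Fn3k has no value with a mean of at least 50, which removes it.

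Over all genes, DESeq2 called 926, 2143, 2052, 104 and 2639 genes, against 287, 1020, 986, 8 and 617 by limma, in sgCul3, sgKeap1, the mean of both, sgKeap1 against sgCul3, and sgNrf2. Equal totals moved the median log2 fold change of all genes to -0.20 in sgKeap1, -0.23 in sgKeap1 against sgCul3 and 0.34 in sgNrf2, and called 874 genes higher and 362 lower in sgNrf2, against 266 and 351. The count was 162 with a mean of at least 50 and 156 with both groups alone in sgCul3, 0 with both groups alone in sgKeap1 against sgCul3, 1778 with the block in sgKeap1, and 972 with quantile normalization and 1236 with equal totals in sgNrf2. With a library left out it ran from 68 to 328 in sgCul3, 319 to 1516 in sgKeap1 and 3 to 3383 in sgNrf2 (3 without sgNrf2 A, 46 without sgNrf2 B, 3383 without control A, 364 without control B). Depth limits Fn3k most, with 0 to 97 reads per library. Leaving Alb out of the hepatocyte markers, chosen after seeing the data, moved the mean of Fn3k reads per 10000 marker reads to 7.14 in sgKeap1, against 1.76 with it, and to 1.66 in sgGFP, against 1.03.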
